A study of Mus musculus with 36 samples.

Results

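The H2-E low spleens are the 10 of 36 mouse spleens in which a probe set of H2-Ea lay below 12.5 on the scale log2(intensity + 16), and the H2-E high spleens are the 26 in which it lay at or above that level. All 36 mice were F2 offspring of a cross and 4 months old, and RNA of each spleen was hybridised to its own Affymetrix array. The total of animals stated in the design text does not match its groups of 18 and 18, and the 36 labelled arrays were taken as 36 mice. The title of the series names arthritic mice deficient in the interleukin 1 receptor antagonist, while the labels name no strain, genotype or sex for any mouse. Whether the non-arthritic mice were deficient too is not given by the labels, so the arthritis label is not read as a genotype. Of the 10 low spleens, 3 came from arthritic mice (replicates 3, 11 and 13) and 7 from non-arthritic mice (replicates 1, 2, 6, 8, 11, 13 and 16). Of the 26 high spleens, 15 came from arthritic and 11 from non-arthritic mice. The classes were drawn from measured values and not from a label, so H2-Ea, and H2-Eb1 and Msh5 that were named with it, are described below with no p. The fit across all probe sets includes them, and its counts are given without them as well. Tests on the other genes ask which probe sets differ between classes defined by H2-Ea.

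Classical major histocompatibility complex (MHC) class II molecules are pairs of an alpha and a beta chain that present peptides to CD4+ T cells on B cells, dendritic cells and macrophages, all of which a spleen holds. The mouse makes H2-A from H2-Aa and H2-Ab1 and H2-E from H2-Ea and H2-Eb1, while H2-DM and H2-DO act inside the cell on peptide loading. These genes lie together on chromosome 17 in the MHC, beside the class I genes and the class III region, and are inherited as haplotypes that differ between strains. Several common mouse MHC haplotypes do not make the H2-E alpha chain, and the reference assembly GRCm38.p6 annotates H2-Ea as a transcribed pseudogene.

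The start regions of H2-Eb1, H2-Aa and Msh5 are shown because each gene has a probe set with a large difference between the classes, and they lie on both strands. For H2-Aa, 1 of its 4 tested probe sets passed. Each window, taken from RefSeq on GRCm38.p6, runs from 250 bases before to 50 bases after the gene start and is written 5′ to 3′ on the gene's strand. Capitals mark CCAAT and GCAAC on either strand (ATTGG and GTTGC on the other strand), which are letters within the Y box and X box of class II promoters. The H2-Eb1 window lies at chr17:34305617-34305916 (+), the H2-Aa window at chr17:34287774-34288073 (-) and the Msh5 window at chr17:35046573-35046872 (-).
H2-Eb1: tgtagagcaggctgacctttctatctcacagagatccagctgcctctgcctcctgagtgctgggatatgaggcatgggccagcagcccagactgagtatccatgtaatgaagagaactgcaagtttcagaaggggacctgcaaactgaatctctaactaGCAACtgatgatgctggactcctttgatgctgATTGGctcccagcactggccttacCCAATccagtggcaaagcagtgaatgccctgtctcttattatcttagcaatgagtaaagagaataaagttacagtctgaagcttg
H2-Aa: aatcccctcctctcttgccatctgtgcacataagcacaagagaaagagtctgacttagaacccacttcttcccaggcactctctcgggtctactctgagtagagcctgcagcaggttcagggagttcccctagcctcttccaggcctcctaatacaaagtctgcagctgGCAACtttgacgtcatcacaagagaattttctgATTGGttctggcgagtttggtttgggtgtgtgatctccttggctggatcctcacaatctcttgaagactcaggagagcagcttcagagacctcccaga
Msh5: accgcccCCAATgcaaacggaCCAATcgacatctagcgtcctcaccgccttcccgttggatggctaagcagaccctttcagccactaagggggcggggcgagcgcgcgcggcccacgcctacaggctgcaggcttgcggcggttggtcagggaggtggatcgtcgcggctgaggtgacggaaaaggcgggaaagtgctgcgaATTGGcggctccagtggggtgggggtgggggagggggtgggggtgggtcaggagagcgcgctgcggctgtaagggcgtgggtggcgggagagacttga
In H2-Eb1 the GCAAC match lay 91 bases before the start, followed by CCAAT matches at 59 and 35 bases. In H2-Aa the GCAAC match lay at 81 bases and the CCAAT match at 48 bases before the start. Msh5 held 3 CCAAT matches and 0 GCAAC matches. Of the 10 listed class II genes 8 had windows, 9 in all, and CCAAT stood in 8 of these, while 37.41% of all 32851 windows in the table hold it. GCAAC stood in 6 of the 9, against 35.21% of all windows. The matches are a description of the reference letters, and the alleles of these mice were not read.

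H2-Ea defined the classes, and its levels fell into separate ranges. On the log2 scale it lay between 10.28 and 11.83 with a median of 10.66 in low spleens, against 13.59 to 14.67 with a median of 14.14 in high spleens. In intensity this was 1225 to 3624 in low and 12312 to 26118 in high spleens, so the signal of low spleens also stood above the median intensity of their arrays. The gap between the classes was 1.76. The 2 low spleens nearest to it, non-arthritic replicates 16 and 8, had 11.83 and 11.75, and the next low spleen had 11.27. A second H2-Ea probe set lay between 10.88 and 11.88 (median 11.50) in low and between 12.65 and 14.13 (median 13.47) in high spleens.

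H2-Eb1, the beta chain that pairs with H2-Ea, lay between 10.75 and 11.87 (median 10.99) in low spleens, against 13.38 to 14.62 (median 13.99) in high spleens. Msh5, a MutS homologue used in meiotic recombination, lay between 5.97 and 7.47 (median 6.88) in low and between 8.42 and 9.72 (median 9.15) in high spleens on its stronger probe set. The differences, low minus high, were -3.27 (SE 0.15) for H2-Ea, -2.96 (SE 0.14) for H2-Eb1 and -2.32 (SE 0.15) for Msh5. In each of these probe sets all low spleens were below all high spleens. Dividing H2-Eb1 at its own widest gap of 1.51 gave the same 2 classes.

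**Figure D1:**
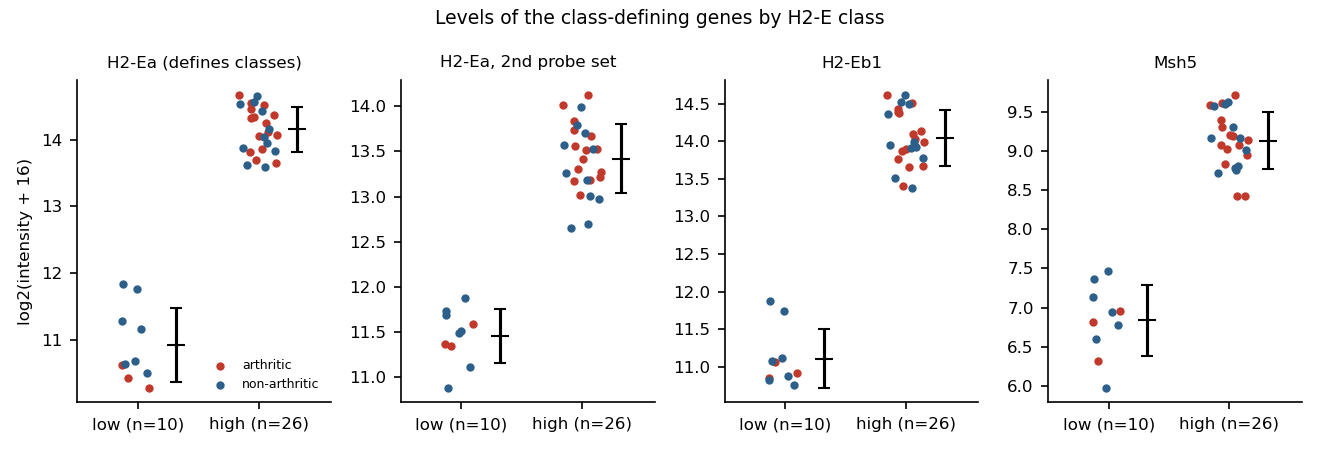
Levels of H2-Ea (the defining and a second probe set), H2-Eb1 and Msh5 as log2(intensity + 16), one point per spleen, for 10 low and 26 high spleens, red for arthritic and blue for non-arthritic mice; black marks show mean and SD. In H2-Ea the low spleens reach 11.83 at most and the high spleens start at 13.59.

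Arthritis was recorded for 30% of low spleens (3 of 10, exact 95% interval 6.67 to 65.2%) and for 57.7% of high spleens (15 of 26, 36.9 to 76.6%). The difference was not past the threshold (two-sided Fisher's exact test, p = 0.264). The intervals overlap, and the small number of low spleens limits the precision. Median intensity per array ran from 128.5 to 183.2 in low and from 110.6 to 181.6 in high spleens, and the ratio of the 3′ to the 5′ Gapdh control from 0.728 to 1.09 in low and from 0.679 to 1.16 in high spleens, so these measures overlapped.

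Outside the genes that define the classes, the low spleens differed from the high spleens almost only in genes near H2-Ea. In a limma fit with arthritis as a term, 20 of 27022 tested probe sets passed an adjusted p of 0.05 (0.074%), 19 lower (0.0703%) and 1 higher (0.0037%) in low spleens. Without H2-Ea, H2-Eb1 and Msh5 the count was 15 of 27017 (0.0555%), which hold 10 genes placed on chromosome 17 and 1 probe set that names both H2-DMb2 and H2-DMb1. At an unadjusted p under 0.05 there were 1055. In 16 probe sets (0.0592%), 11 of them (0.0407%) of genes other than the defining ones, no low spleen lay inside the range of the high spleens. All 20 kept their sign in arthritic mice, in non-arthritic mice and within each of the 3 clusters that the arrays form by their hybridisation control signals. For the 16 without overlap this sign was fixed in advance, since any subset that holds both classes must give it. The 20 were also picked from these same arrays.

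The calls were set apart by position. Within 10 Mb of H2-Ea on chromosome 17, 18 of 513 tested probe sets passed (3.51%), and 13 of 508 without the defining genes (2.56%). On the rest of chromosome 17 the count was 1 of 532 (0.188%), and among probe sets with no single placed gene 1 of 4476 (0.0223%). On the other chromosomes limma called 0 of 21501, with 760 at an unadjusted p under 0.05, and rank-sum tests also called 0. The nearest 1 Mb held 17 of the calls among 150 probe sets (11.3%), or 12 of 145 (8.28%) without the defining genes, 1 to 5 Mb held 0 of 130, and 5 to 10 Mb held 1 of 233 (0.429%). The share at an unadjusted p under 0.05 was 33.3% within 1 Mb, 19.2% at 1 to 5 Mb, 7.3% at 5 to 10 Mb, 6.31% at 10 to 20 Mb, 4.27% at 20 to 40 Mb and 5.05% beyond 40 Mb. The share within 1 Mb includes the probe sets of H2-Ea, H2-Eb1 and Msh5. Distances are between gene starts on GRCm38.p6.

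**Figure D2:**
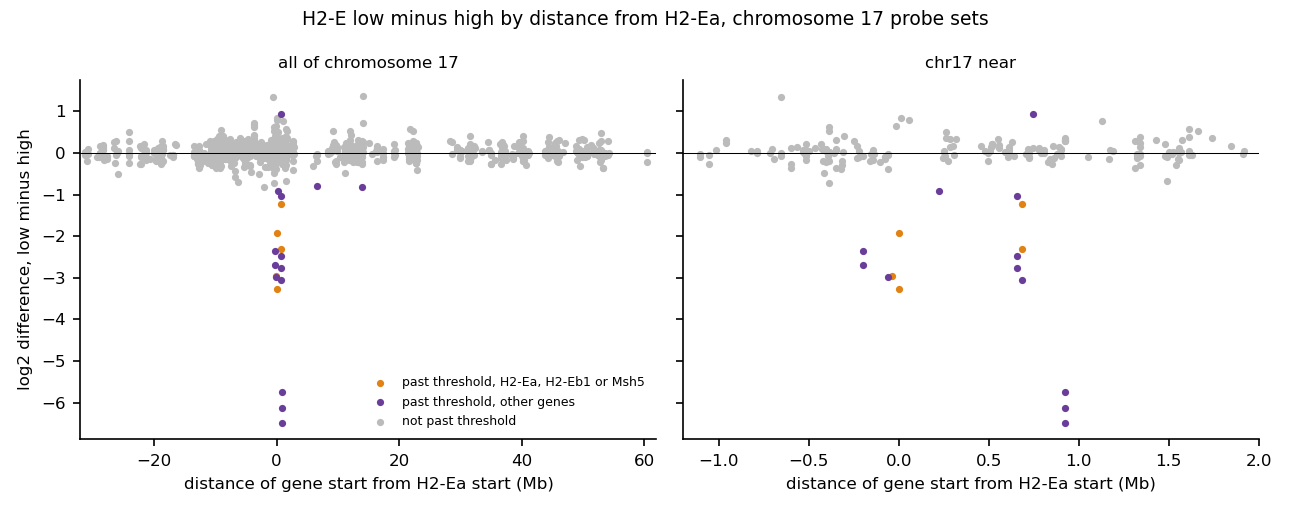
Log2 difference (low minus high) of each tested chromosome 17 probe set against the distance of its gene start from that of H2-Ea in Mb, over the whole chromosome (left) and near H2-Ea (right). Orange points are H2-Ea, H2-Eb1 and Msh5, purple points are other genes past the threshold, and grey points did not pass; 17 of the calls lie within 1 Mb, and 12 of these are purple.

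Where a gene has several tested probe sets, they are lettered below, with A the one of the most negative difference between low and high spleens. H2-D1, a classical class I heavy chain that presents peptides to CD8+ T cells, showed the largest fall, on 3 of its probe sets. On probe set A it lay between 5.59 and 9.66 (median 6.85) in low spleens, against 12.69 to 14.24 (median 13.25) in high spleens. In intensity this was 32.3 to 792 with a median of 99.4 in low and 6577 to 19315 with a median of 9739 in high spleens. No low spleen lay inside the high range. The difference was -6.48 (SE 0.30, limma adjusted p = 4.29e-19), 89.4-fold lower in low spleens on the log2(value + 16) scale, which understates the change of a dim signal. Probe set B differed by -6.14 (SE 0.29) and probe set C by -5.75 (SE 0.29), with limma adjusted p = 5.20e-19 and 2.50e-18.

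The other 5 tested probe sets of H2-D1 did not pass and pointed the other way, with differences between 0.29 and 0.35. The one closest to passing, probe set F, lay between 13.90 and 14.95 (median 14.55) in low and between 13.66 and 14.64 (median 14.24) in high spleens, with a difference of 0.32 (SE 0.09, limma adjusted p = 0.501). Under 1 gene name, probe sets A and B had median intensities of 99.4 and 94.1 in low spleens, below the median intensity of every low array, while D to H did not fall. Probe sets whose names end in x_at share probes with other transcripts, and class I genes are close paralogues, so the gene behind each signal cannot be told from the table. The match of the probes to the alleles of these mice was not tested, for this gene and for those below. In these bulk samples, fewer cells that express a gene and less RNA per cell cannot be told apart either.

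H2-K1, the other classical class I chain, passed on 0 of its 4 tested probe sets, with differences between -0.35 and 0.31. Of 8 tested genes in the list of class I chains, each represented by its brightest probe set, 0 passed, beside 0.0555% of all probe sets without the defining genes. H2-D1 counted there as not passing, by probe set F, although its probe sets A to C passed. The list's median difference was 0.24, against 0.02 over all tested probe sets.

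**Figure D3:**
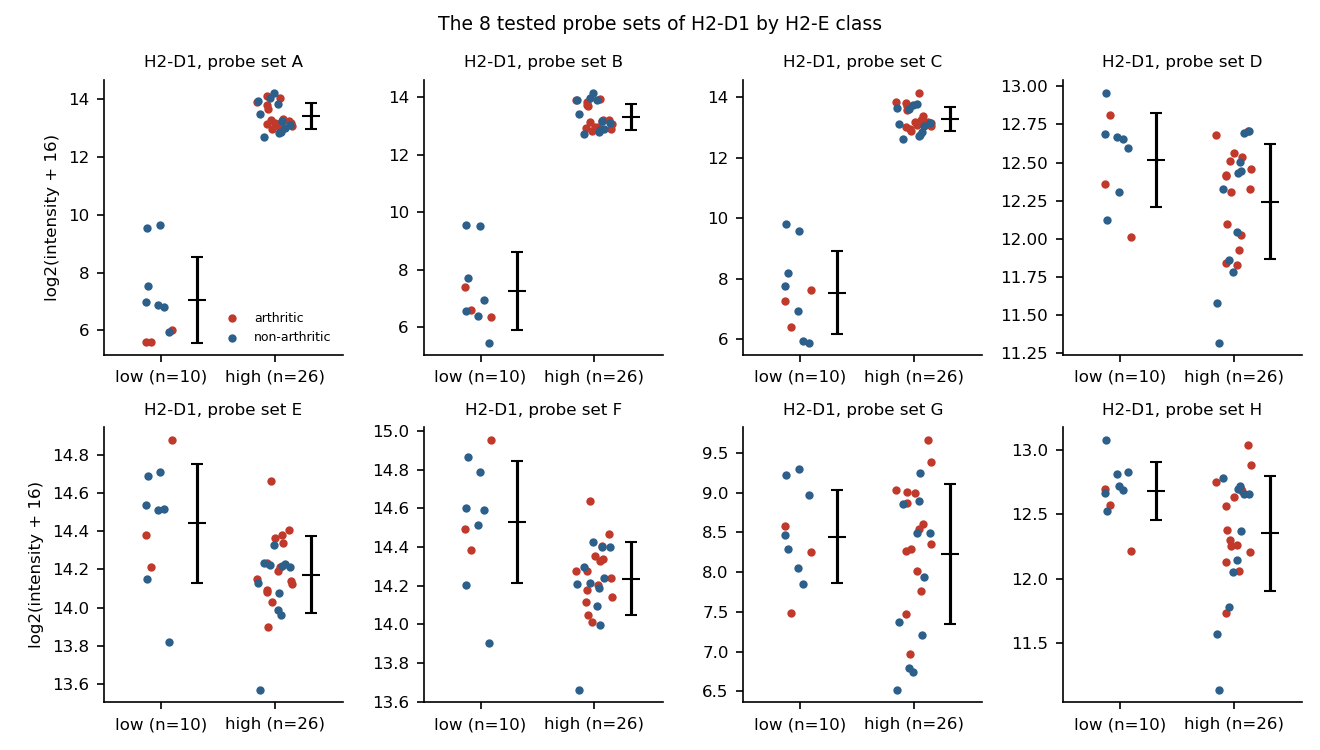
The 8 tested probe sets of H2-D1 as log2(intensity + 16), one point per spleen, for 10 low and 26 high spleens, red for arthritic and blue for non-arthritic mice; black marks show mean and SD. In 3 probe sets (A to C) the low spleens lie below 10 and the high spleens above 12.6, while in the other 5 (D to H) the classes overlap.

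Among the class II chains, low spleens fell in some probe sets and not in others of the same gene. H2-Aa, the alpha chain of H2-A, lay between 10.59 and 12.19 (median 11.58) in low spleens on probe set A, against 13.80 to 14.86 (median 14.42) in high spleens, with no overlap. The difference was -2.97 (SE 0.13, limma adjusted p = 9.54e-20). Its brightest one, probe set C, had medians of 14.78 in low and 14.75 in high spleens and a difference of -0.05 (SE 0.10, adjusted p = 0.968 in limma). Probe set B differed by -0.39 (SE 0.09, limma adjusted p = 0.096), and probe set D by -0.02.

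H2-DMb2, a beta chain of the peptide editor H2-DM, lay between 8.38 and 10.26 (median 8.78) in low spleens on probe set A, against 10.62 to 12.62 (median 11.62) in high spleens. The classes did not overlap, and the difference was -2.70 (SE 0.22, limma adjusted p = 1.65e-11). Its probe set B fell by 2.36 (SE 0.21, limma adjusted p = 2.59e-10), while the brightest one, probe set C, differed by -0.07 (SE 0.12, limma adjusted p = 0.965). The probe set shared with H2-DMb1 differed by -0.76 (SE 0.12, limma adjusted p = 5.71e-04), with 5 low spleens inside the range of the high spleens.

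H2-Ab1, the partner of H2-Aa, had differences between -0.14 and -0.10 on its 3 probe sets, and all 10 low spleens lay inside the range of the high spleens on each. H2-DMa differed by -0.09 (SE 0.11), H2-Ob by -0.23 (SE 0.13) and H2-Oa by 0.28 (SE 0.09), with limma adjusted p = 0.960 for all 3. H2-Eb2, an additional H2-E beta gene next to H2-Ea, lay between 7.77 and 8.86 (median 8.34) in low and between 6.59 and 8.48 (median 7.82) in high spleens, and differed by 0.66 (SE 0.16, limma adjusted p = 0.160). Of the 7 class II chains other than H2-Ea and H2-Eb1, each by its brightest probe set, 0 passed. The median over all 9 was -0.09. Of the 20 tested partners and regulators of class II, which include the invariant chain and the transactivator Ciita, 0 passed, and their median difference was 0.01. Since 0.0555% of all probe sets without the defining genes passed, counts of 0 in lists this short say little.

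The class III side of the interval held a run of neighbouring genes that fell. In the gene order of GRCm38.p6 the run is Lsm2, D17H6S56E-5, Vars, Vwa7, Sapcd1, Gm52318, Msh5, Gm23421 and Clic1. Of these, D17H6S56E-5, Vars and Sapcd1 passed, Msh5 is a defining gene, Vwa7 was on the array but too low to be tested, and Gm52318 and Gm23421 were not analysed here. The flanking genes Lsm2, a component of U6 small nuclear RNA complexes, and Clic1, a chloride channel protein, differed by -0.08 (SE 0.13) and -0.03 (SE 0.08) and did not pass.

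Sapcd1 lay between 4.91 and 7.16 (median 6.65) in low spleens, against 8.73 to 10.40 (median 9.27) in high spleens. The difference was -3.05 (SE 0.22, limma adjusted p = 3.87e-13), and the classes did not overlap. D17H6S56E-5 lay between 8.52 and 9.42 (median 9.15) in low and between 10.98 and 12.69 (median 11.81) in high spleens on probe set A, and differed by -2.75 (SE 0.16, limma adjusted p = 3.02e-16). Its other probe set fell by 2.49 (SE 0.20, limma adjusted p = 1.65e-11). Vars, the valyl-tRNA synthetase of the cytosol, lay between 8.67 and 9.63 (median 9.35) in low and between 9.68 and 11.09 (median 10.33) in high spleens. It fell by 1.04 (SE 0.12, limma adjusted p = 6.55e-07), and its classes were separated by a narrow margin.

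Abhd16a, a phosphatidylserine lipase gene 0.75 Mb from H2-Ea, was the single probe set that rose. On 1 of its 2 probe sets it lay between 10.80 and 11.19 (median 10.95) in low spleens, against 9.04 to 10.74 (median 10.27) in high spleens. The difference was 0.93 (SE 0.16, limma adjusted p = 0.00249), and all low spleens lay above all high spleens. The gene's second probe set differed by 0.11 (SE 0.08, limma adjusted p = 0.960), with 9 low spleens inside the high range. In the list of class III and other MHC region genes, 63 genes other than Msh5 were tested, each by its brightest probe set. Of these, 2 passed (3.17%), both lower (Vars and Notch4), against 0.0555% of all probe sets without the defining genes. Abhd16a counted there as not passing, by its second probe set, and Sapcd1 and D17H6S56E-5 are not in the list. The median over the list, Msh5 included, was 0.02.

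In 3 further genes that fell, the classes differed less and overlapped. Notch4, a Notch receptor of endothelial cells 0.22 Mb away, lay between 7.21 and 7.90 (median 7.48) in low and between 7.61 and 9.16 (median 8.31) in high spleens, and differed by -0.93 (SE 0.15, limma adjusted p = 6.91e-04). Mmut, the mitochondrial methylmalonyl-CoA mutase 6.59 Mb away, lay between 8.12 and 8.86 (median 8.49) in low and between 8.69 and 10.02 (median 9.22) in high spleens on probe set A. It fell by 0.80 (SE 0.12, limma adjusted p = 1.05e-04), and its other tested probe set differed by -0.19 (SE 0.11). B430306N03Rik, 13.97 Mb away, lay between 7.30 and 8.74 (median 8.10) in low and between 7.85 and 9.78 (median 8.89) in high spleens, and differed by -0.83 (SE 0.17, limma adjusted p = 0.0275). It was the only call outside the 10 Mb, and it was lost (adjusted p between 0.0561 and 0.172 in limma) when arthritic replicate 11 or 13 or non-arthritic replicate 7, 11, 13 or 16 was left out.

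**Figure D4:**
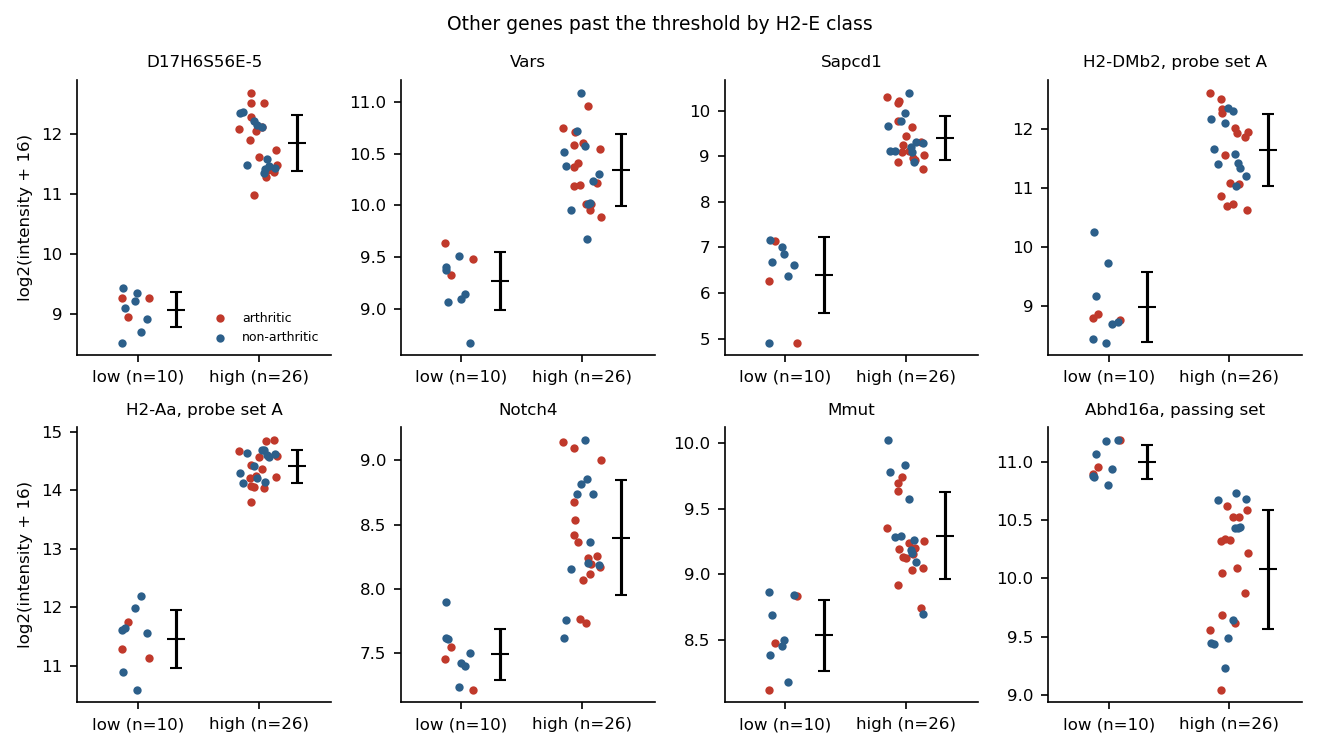
Levels of 8 genes past the threshold as log2(intensity + 16), one point per spleen, for 10 low and 26 high spleens; red is arthritic, blue non-arthritic, and black marks show mean and SD. H2-Aa, H2-DMb2, D17H6S56E-5 and Mmut are shown by probe set A and Abhd16a by its passing one. Abhd16a lies higher in low spleens and the other 7 lower, with overlap in Notch4 and Mmut.

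No probe set showed a class difference that depended on the arthritis label past the threshold. The interaction of class and arthritis passed for 0 of 27022 probe sets (0%) in limma, with 1573 at an unadjusted p under 0.05 and a lowest adjusted p of 0.151. With only 3 arthritic and 7 non-arthritic low spleens, this count of 0 says little about whether the class difference depends on arthritis. For H2-D1 on probe set A the difference was -7.70 in arthritic and -5.77 in non-arthritic spleens (interaction adjusted p = 0.826 in limma). For H2-Aa on probe set A it was -2.99 in arthritic and -2.96 in non-arthritic spleens. For Sapcd1 it was -3.29 in arthritic and -2.92 in non-arthritic spleens. Fitted on their own, the 18 arthritic arrays gave 14 calls and the 18 non-arthritic arrays 15, all of them among the 20. Vars was lost among arthritic arrays alone (limma adjusted p = 0.163), while Abhd16a, Notch4, Mmut, B430306N03Rik and the probe set shared by H2-DMb2 and H2-DMb1 were lost in both.

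Within clusters of arrays by hybridisation control signal, which held 3, 4 and 3 low beside 13, 9 and 4 high spleens, the differences had the same sign. They were -5.04, -6.68 and -7.36 for H2-D1 on probe set A, -3.48, -2.55 and -2.80 for H2-Aa on probe set A, and 0.91, 0.61 and 1.53 for the probe set of Abhd16a that passed. In these 3 probe sets the classes did not overlap, so the sign was fixed in advance and only the size could vary.

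The low spleens were not uniform. H2-D1 on probe set A was at 9.66 in non-arthritic replicate 8 and at 9.53 in non-arthritic replicate 16, while the other 8 low spleens lay between 5.59 and 7.52. These 2 spleens were also the highest of the low class for H2-Ea. Over the 13 probe sets that fell and name 1 gene other than H2-Ea, H2-Eb1 and Msh5, replicates 16 and 8 were each among the 2 highest low spleens in 8, against 0 to 3 for each other low spleen. The 8 of each included 3 probe sets of H2-D1 and 2 of H2-DMb2, so the count is not one of separate genes. In H2-Aa on probe set A replicates 16 and 8 were instead the 2 lowest, at 10.89 and 10.59. Without these 2 spleens the fit made 22 calls, 20 of them shared, and the difference of H2-D1 on probe set A was -7.04.

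In some genes near H2-Ea a gap also parted the high spleens. Over the 26 high spleens, the widest gap between neighbouring values of H2-Eb1, with 14.14 below it and 14.36 above, left 9 spleens above and 17 below. The widest gap of Sapcd1 and those of 2 probe sets of H2-D1, A and B, left the same 9 spleens above. These gaps measured 0.22 for H2-Eb1, 0.21 for Sapcd1, and 0.20 and 0.29 for probe sets A and B of H2-D1. Of 27022 tested probe sets only these 4 (0.0148%), of 3 genes within 1 Mb of H2-Ea, had their widest gap there. H2-Eb1, a defining gene, set the split and so matches it by construction, and only Sapcd1 and the 2 probe sets of H2-D1 are other matches. H2-D1 on probe set B lay between 13.71 and 14.17 (median 13.90) in the 9 spleens and between 12.71 and 13.42 (median 12.97) in the 17, and Sapcd1 between 9.65 and 10.40 (median 9.96) and between 8.73 and 9.44 (median 9.11).

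The 9 spleens came from arthritic replicates 9, 12, 14, 16 and 17 and non-arthritic replicates 3, 4, 7 and 10, and the 17 from 10 arthritic and 7 non-arthritic mice. Their hybridisation control clusters were 6, 1 and 2 spleens for the 9, and 7, 8 and 2 for the 17. By the levels of H2-Eb1, Sapcd1 and probe sets A and B of H2-D1, the 36 spleens were thus 10, 17 and 9. The gaps behind the sets of 9 and 17 covered 12.3 to 19.5% of each probe set's range over the high spleens. The widest gap of H2-Aa on probe set A covered 22.4%, with 1 spleen below it. Other probe sets that passed had their widest gap elsewhere, such as H2-D1 on probe set C (25 below, 1 above) and Msh5 on its stronger one (2 below, 24 above). H2-D1 on probe set C still placed the 9 spleens (13.57 to 14.16) above the 17 (12.60 to 13.40). So did H2-DMb2 on probe set A, with 12.02 to 12.62 above 10.62 to 11.96. Among all tested probe sets, those that part the 9 from the 17 without overlap were not counted. The sets were seen in the data, so no difference between them was tested. H2-Ea itself showed no such gap, with 14.32 to 14.67 (median 14.53) in the 9 and 13.59 to 14.38 (median 13.95) in the 17, and its widest gap over the 26 was 0.12.

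Within these sets, the correlations with H2-Ea varied between genes, and whether they differ between the 17 and the 9 spleens was not tested. In the 17 spleens Pearson's r with H2-Ea was 0.84 for H2-Eb1, 0.68 for the second H2-Ea probe set, 0.48 for H2-D1 on probe set A and 0.24 for Sapcd1. In the 9 spleens r was 0.71 for H2-Eb1, 0.68 for the second H2-Ea probe set, 0.76 for H2-D1 on probe set A and -0.27 for Sapcd1. Without the 2 spleens farthest from the median of H2-Ea, r for H2-Eb1 was 0.89 in the 17 and 0.49 in the 9, and r for H2-D1 on probe set A was 0.40 in the 17 and 0.92 in the 9. These values describe sets drawn from the same data and carry no test.

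**Figure D5:**
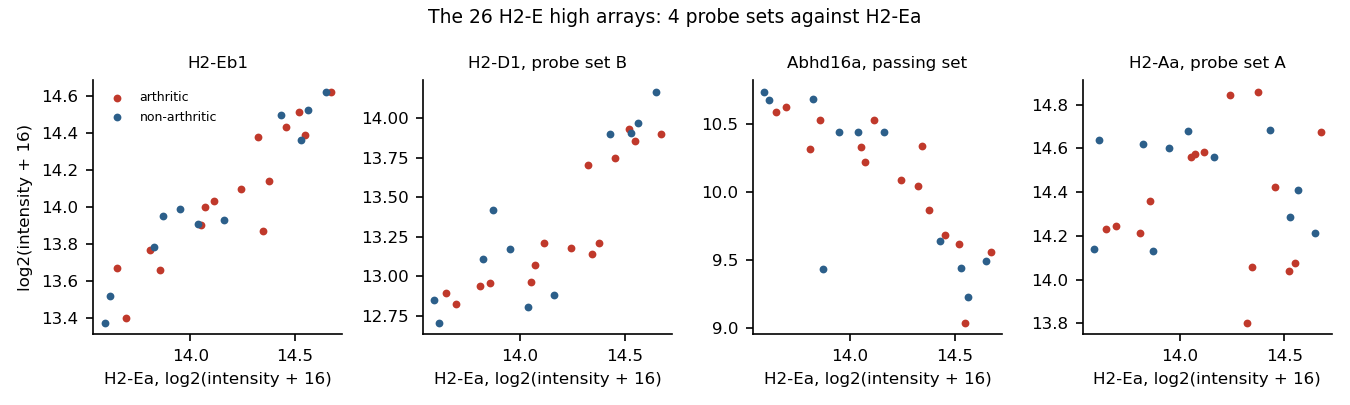
H2-Eb1, H2-D1, Abhd16a and H2-Aa against H2-Ea in the 26 high spleens, all as log2(intensity + 16), one point per spleen, red for arthritic and blue for non-arthritic mice. In H2-D1 on probe set B 9 spleens lie at 13.71 or more and 17 at 13.42 or less, and H2-Aa on probe set A shows no such sets.

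Over all 36 spleens, the genes whose levels followed H2-Ea most closely were H2-Eb1 (Pearson's r = 0.99), Msh5 (0.96), Sapcd1 (0.93), D17H6S56E-5 (0.90), Vars (0.86) and Notch4 (0.78), each by its brightest probe set. H2-D1, H2-Aa and H2-DMb2 entered this ranking by probe sets F, C and C, which did not pass, so their passing probe sets could not appear in it. The values describe the separation of the classes, since the spleens fall into separate sets.

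Cell type markers did not pass in any list. Over all probe sets without the defining genes 0.0555% passed, so counts of 0 in lists this short say little about the cell types. The B cell list, which covers the most numerous class II expressing cells of the spleen, had 0 of 13 tested genes past the threshold and a median difference of -0.06, and its mean level was 12.07 to 12.71 in low and 12.02 to 12.85 in high spleens. Dendritic cell genes passed in 0 of 14 with a median of 0.03, and macrophage and monocyte genes in 0 of 13 with a median of 0.06. The T cell list gave 0 of 19 and a median of -0.08.

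Adipocyte genes had the largest median of all 17 lists, without a call. Of these genes, 0 of 7 passed and all 7 were positive with a median of 0.92. At an unadjusted p under 0.05 there were 5 of the 7, beside 1055 of all 27022 probe sets. The mean level of the 7 was 9.01 to 11.51 (median 10.75) in low and 8.33 to 11.56 (median 9.52) in high spleens. Adipoq, the fat hormone adiponectin, differed by 1.18 (SE 0.50, limma adjusted p = 0.960). Interferon response genes passed in 0 of 19, with 17 positive, a median of 0.22 and 7 at an unadjusted p under 0.05. Their mean level was 9.19 to 10.94 (median 9.49) in low and 9.17 to 10.06 (median 9.48) in high spleens. Arthritic replicate 3 was the highest low spleen for Ifit3, Oasl1 and Usp18. Pancreas genes had a mean level of 7.03 to 11.91 in low and 6.90 to 13.35 in high spleens, and without the 3 spleens that stood high in them the fit again made 20 calls. The part of fat tissue in the calls was not tested.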

How the data were processed

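Total RNA of 36 individual spleens was extracted with Trizol and labelled with biotin by the array maker's protocol, per the labels' protocols. The values the authors deposited are array intensity, linear and between 0.103 and 67960. MAS5 is named in the submitters' processing notes, its release not given in the sources used here. Each value was taken as log2(value + 16) without normalizing the arrays again. The manufacturer's 64 control probe sets were left out, and so were probe sets whose mean over all arrays lay below the 40th percentile (6.49 on the log2 scale), which left 27022 of 45037.

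By the platform annotation 34945 probe sets carry 1 gene name, 932 carry several, and 9160 are unlisted. Of those naming 1 gene, 34741 matched the RefSeq table of GRCm38.p6, which gave positions. Where a list needed 1 probe set per gene, the brightest over all arrays was used.

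The classes were compared by the linear models of limma 3.58.1 (R 4.3.3; lmFit, then eBayes with trend, arthritis label as a term, two-sided, Benjamini-Hochberg over all tested probe sets, threshold 0.05), and differences are low minus high. The members, the gene lists and the tests were chosen with earlier results of these data known. Nothing in the labels says how the mice were housed or sampled beyond 1 spleen per array, so p-values measure the spread between these arrays. Named genes are H2-Ea, H2-Eb1, Msh5, all class II chains, the genes past the threshold by size of difference in each region, up to 4 members of each list by unadjusted p, and the 6 most like H2-Ea. Further probe sets of these genes, Lsm2, Clic1, and the sets of 9 and 17 high spleens were added after values were seen. Shared title numbers did not pair the mice: over 18 pairs the correlation of deviations ran from -0.15 to 0.40, with 8 over 0.1. The highest correlation between any pair of arrays was 0.974, so no array was counted as a repeat. On simulated arrays of 10 low and 26 high spleens, limma recovered 47 of 100 probe sets changed by 0.5 and 93 of 100 changed by 1 among 27022, with 10 false calls. Correlations and figures were made with scipy 1.17.1, numpy 2.4.6, matplotlib 3.10.9 and pandas 2.3.3 under Python 3.11.15. Of the listed genes, 49 had no probe set.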

Additional observations from a re-analysis of the deposited data

Results flagged for a closer look

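Of 112 probe sets checked among the 10 low spleens, 9 had 1 spleen far from the others, and chance alone flags about 1 in 20. Non-arthritic replicate 6 stood highest for the pancreas genes Zg16 (12.42), Cela3b (11.51), Cela1 (13.42) and Cel (11.45), with the next low spleens at 7.09, 8.52, 11.39 and 7.73, and for the second probe set of Abhd16a (11.26, next 10.91). Arthritic replicate 3 stood highest for the interferon response genes Ifit3 (11.34), Oasl1 (9.91) and Usp18 (11.63), with the next at 9.60, 9.01 and 10.28. Non-arthritic replicate 13 stood lowest for H2-Aa on probe set B (13.74, next 14.17).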

How the results depend on the processing

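The total of 20 calls stayed within 1.5 times its size under every setting tried. It was 20 with a pseudocount of 1, 21 with 64, 21 without the filter, 25 after quantile normalization and 20 without the trend. Without the arthritis term it was 25, with the control cluster as a block 22, and with rank-sum tests 20. Dividing levels of 12 or 13 and classes from H2-Eb1 gave the same 10 and 26 spleens, so their 20 calls repeat the main fit. Leaving out each array in turn gave 19 to 26 calls in all, 18 to 22 near H2-Ea, 0 to 1 on the rest of chromosome 17 and 0 to 1 on the other chromosomes. The call on the rest of chromosome 17, B430306N03Rik, became 0 with the replicate block, with rank-sum tests, and in arthritic or non-arthritic arrays alone. On the other chromosomes 1 probe set, Itgae, was called with the replicate block, and 1, Tlk2, without the 2 low spleens within 1 of the dividing level and without arthritic replicate 1 or 9 or non-arthritic replicate 13, 15 or 16. The replicate block gave 15 calls, 14 of them shared, but the title numbers do not pair the mice. Median correlation of pairs was 0.10, and 2 of 18 arthritic arrays correlated best with their own number. No gene past the threshold changed sign in any of 52 settings, while 34 of the other 92 named probe sets did in some. Probe sets without overlap between the classes had little room to change sign. The causes were not tested. Leaving out arrays with an actin ratio over 3 could not be run as none exceeded it. Class sizes of 10 and 26 and the dim signal of some probe sets limit which differences could be called.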
